A study of Homo sapiens with 15 samples.

Results

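Genes of intestinal and gastric-type epithelium were examined in xenografts of human cholangiocarcinoma (CCA), the cancer of the bile duct epithelium. The set held 10 genes named in advance by symbol, CDX2, CDH17, VIL1, TFF1, TFF2, TFF3, LGALS4, REG4, GPA33 and AGR2, out of 58735 genes in the count table, a rule that uses no measured value, although results of these data were known when they were named. RNA-Seq had been run on 15 cell line-derived xenograft (CDX) tumors, 5 from each of 3 human CCA cell lines: HuCC-A1 and HuCC-T1, described by the study as intrahepatic, and EGI-1, described as extrahepatic. The study harvested them to characterize models that respond strongly or weakly to an antibody against CLDN1, and all the tumors analysed here came from control animals. All hosts were immunodeficient NRG mice (non-obese diabetic, Rag1-/- and without the common gamma chain) that received PBS into the peritoneum every week. Hosts of HuCC-A1 were treated for 6 weeks and hosts of EGI-1 for 4, and the labels give no duration for HuCC-T1. Each model was grown from 1 cell line, so the line, the site of origin of the cancer and the length of the experiment cannot be told apart.

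Adult bile ducts normally express few of these genes, whereas CCA and its precursor lesions are known for taking on features of gut epithelium. CDX2 is the homeobox transcription factor that specifies the intestine, and CDH17, VIL1, LGALS4 and GPA33 are genes of the absorptive surface that are widely used to recognize intestinal differentiation. The trefoil factors are small peptides secreted together with mucins: TFF1 by surface mucous cells of the stomach, TFF2 by gastric mucous neck and gland cells, and TFF3 by intestinal goblet cells. REG4 is a secreted lectin of the goblet and enteroendocrine lineages, and AGR2 is a protein disulfide isomerase of the endoplasmic reticulum that assists mucin folding.

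Library totals ranged from 20001412 to 33585265 counts in HuCC-A1, from 34239460 to 44067878 in EGI-1 and from 26163778 to 33984103 in HuCC-T1. Levels are given as CPM, the counts of a gene scaled to the size of its library (TMM-adjusted totals), and 3 counts in a library corresponded to between 0.0681 and 0.150 CPM before that scaling. All 10 genes passed the filter on low counts and were among 21019 tested. The biliary label was checked against marker genes: the cytokeratin KRT19 (2830 ± 207 CPM in HuCC-A1, 8951 ± 2092 in EGI-1 and 4870 ± 2334 in HuCC-T1, SD, n = 5 each) and EPCAM (168 ± 32.0, 548 ± 45.8 and 330 ± 51.9 CPM) were present in every model, while KRT7 had a mean of 55.2 ± 17.2 CPM in EGI-1 against 1059 ± 371 in HuCC-A1 and 2109 ± 767 in HuCC-T1. In bulk RNA, fewer cells that express a gene and less RNA per cell cannot be told apart.

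The 10 genes did not move as a block. In HuCC-A1 against EGI-1, 1 gene was higher (AGR2), 5 were lower (CDX2, VIL1, TFF2, TFF3 and GPA33) and 4 did not pass an adjusted p of 0.05 in edgeR's quasi-likelihood test; over all tested genes, 29.4% were higher and 26.0% lower in the same comparison. Between HuCC-T1 and EGI-1, 1 gene was higher in HuCC-T1 (AGR2), 5 were lower (CDX2, VIL1, TFF1, TFF2 and TFF3) and 4 did not pass, beside 27.3% higher and 25.0% lower among all tested genes. For HuCC-A1 against HuCC-T1 the counts were 1 higher (CDX2), 4 lower (VIL1, TFF2, GPA33 and AGR2) and 5 that did not pass, beside 29.1% and 27.2%. The 5 lower members in HuCC-T1 against EGI-1 became 3 when EGI-1 replicate 2 or 5, or HuCC-T1 replicate 1, 2, 3 or 5, was left out, which is near the background. The median log2 fold change of the 10 genes was -1.63 in HuCC-A1 against EGI-1, -1.28 in HuCC-T1 against EGI-1 and -0.66 in HuCC-A1 against HuCC-T1, while the medians over all tested genes were 0.06, 0.06 and 0.05. The comparisons share tumors: EGI-1 enters both of the first, and each other model enters 2.

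**Figure D1:**
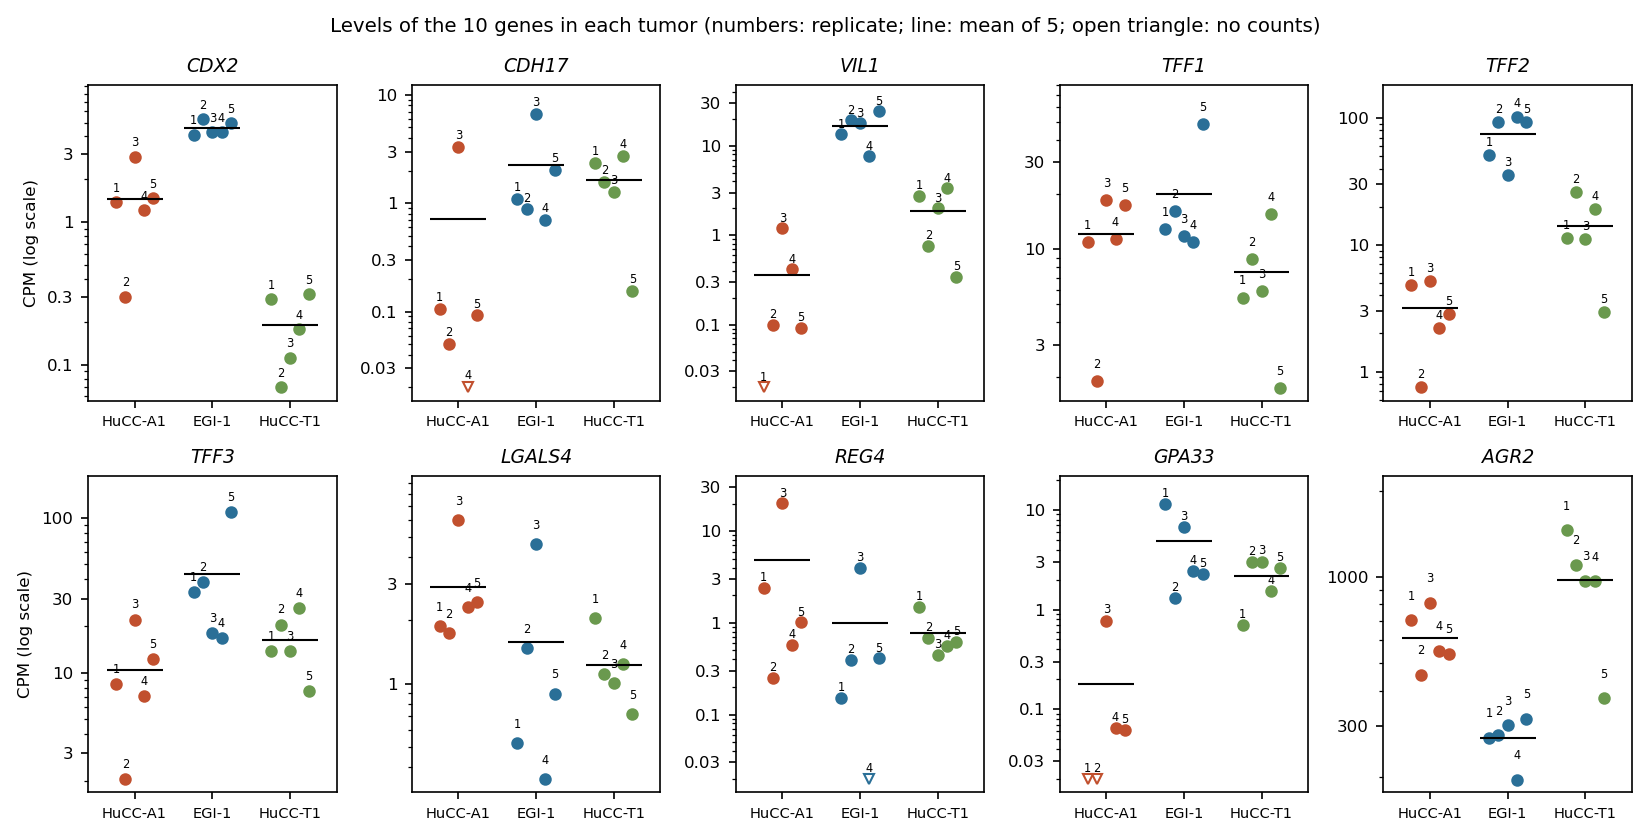
Level of each gene in CPM on a log scale (vertical axis) in the 15 tumors, grouped by model; points are tumors with their replicate number, black lines are means of 5, and open triangles at the foot are tumors with no counts. CDX2, VIL1 and TFF2 are highest in all 5 EGI-1 tumors, AGR2 is lowest there, and HuCC-A1 replicate 3 is the highest HuCC-A1 tumor in every panel.

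CDX2 separated the models in 3 steps. EGI-1 tumors measured 4.12, 5.32, 4.28, 4.31 and 4.97 CPM, a mean of 4.60 ± 0.518 (SD, n = 5) and the tightest group of any member, with a coefficient of variation of 11.3%. HuCC-A1 tumors measured 1.38, 0.300, 2.88, 1.22 and 1.47 CPM, and HuCC-T1 tumors 0.288, 0.0692, 0.112, 0.177 and 0.311 CPM, which rest on only 2 to 10 counts a library. No tumor of either model reached the lowest EGI-1 tumor, while HuCC-A1 replicate 2 fell within the HuCC-T1 range. CDX2 was lower than in EGI-1 by 3.13-fold in HuCC-A1 (log2 fold change -1.65 ± 0.425 SE, edgeR adjusted p = 0.00320) and by 23.3-fold in HuCC-T1 (-4.54 ± 0.508, edgeR adjusted p = 1.14e-06). HuCC-A1 stood 7.44-fold above HuCC-T1 (2.90 ± 0.494, edgeR adjusted p = 8.11e-05). These 3 calls were kept under every alternative in which CDX2 was tested, with log2 values between -2.11 and -1.4, between -4.79 and -4.33, and between 2.45 and 3.14.

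The CDX2 and REG4 promoters are shown because they hold, among the 5 promoters searched, the letters by which intestinal factors are commonly recognized. Sequences of the 300 bases around the start were taken from the RefSeq promoter table (GRCh38.p14), which held 5 members that could be searched: CDX2, LGALS4, REG4, GPA33 and AGR2. Both strands were searched for the letters of 4 factor families, none of which overlapped another in the sequences shown. The CDX letters, TTTATNG, stand in 9.73% of 35116 promoters of the same length. The longer HNF4 letters, CAAAGTCCA, stand in 0.384% and the HNF1 letters, GTTAATNA, in 2.43%. The GATA letters, AGATAAG, stand in 2.68%. The REG4 stretch at chr1:119811560-119811589 (minus strand, positions -129 to -100 from the RefSeq start) lies in the first exon of longer GENCODE 29 transcripts, in their 5′ untranslated part, as does the CDX2 stretch at chr13:27969478-27969507 (minus strand, positions -192 to -163). Capitals mark the matches: AGATAAG followed by TTTATGG in REG4, and in CDX2 the opposite-strand form of the CDX letters.
REG4: tcactgtAGATAAGactTTTATGGatggat
CDX2: gaagctcttaaCAATAAAggtttgaatatt
CDX2 also held 1 HNF1 match (GTTAATCA) that begins at position -3, and LGALS4, GPA33 and AGR2 held none of the 4. A match is a description of letters, not of binding. In EGI-1 and HuCC-A1, CDX2 had means of 4.60 and 1.45 CPM and REG4 of 0.988 ± 1.68 and 4.89 ± 8.60 CPM. The REG4 values did not differ beyond their spread (edgeR adjusted p = 0.0882), and replicate 3, with 20.2 CPM, carried the HuCC-A1 mean.

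VIL1, which encodes the actin-bundling protein villin of microvilli, was the member with the largest difference between models. Levels in EGI-1 were 13.4, 19.4, 18.0, 7.66 and 24.3 CPM, against 0, 0.100, 1.20, 0.419 and 0.0920 CPM in HuCC-A1 and 2.78, 0.761, 2.02, 3.35 and 0.343 CPM in HuCC-T1. Every EGI-1 tumor lay above every tumor of the other models, and HuCC-A1 and HuCC-T1 overlapped. Relative to EGI-1, VIL1 was 42.6-fold lower in HuCC-A1 (log2 fold change -5.41 ± 0.784, edgeR adjusted p = 1.56e-05) and 8.95-fold lower in HuCC-T1 (-3.16 ± 0.684, edgeR adjusted p = 0.000890), and HuCC-A1 was 4.76-fold below HuCC-T1 (-2.25 ± 0.731, edgeR adjusted p = 0.0140). Of its exon bases 44% are shared with USP37 on the opposite strand, so reads of the pair may mix if strand was not used in counting. USP37 had means of 7.81 ± 2.78, 6.78 ± 3.05 and 14.3 ± 3.69 CPM in HuCC-A1, EGI-1 and HuCC-T1, and the part of such reads in the VIL1 values was not tested.

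GPA33, a surface glycoprotein of the immunoglobulin superfamily found on intestinal epithelium, was close to absent in HuCC-A1. HuCC-A1 tumors had 0, 0, 0.773, 0.0644 and 0.0614 CPM, of which only replicate 3, with 29 counts, exceeded 3 counts. EGI-1 tumors had 11.4, 1.30, 6.75, 2.42 and 2.25 CPM and HuCC-T1 tumors 0.703, 3.01, 3.03, 1.52 and 2.62 CPM. All HuCC-A1 values were below all EGI-1 values, the EGI-1 and HuCC-T1 ranges overlapped, and HuCC-A1 replicate 3 overlapped HuCC-T1. GPA33 was 23.9-fold lower in HuCC-A1 than in EGI-1 (log2 fold change -4.58 ± 0.890, edgeR adjusted p = 0.000289) and 10.8-fold lower than in HuCC-T1 (-3.43 ± 0.869, edgeR adjusted p = 0.00266). Without HuCC-A1 replicate 3 these log2 values reached -6.98 and -5.85. HuCC-T1 and EGI-1 did not differ beyond their spread (-1.15 ± 0.735, edgeR adjusted p = 0.20).

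CDH17, the liver-intestine cadherin, passed in none of the 3 comparisons by edgeR with all tumors in, and its means leaned on single tumors. In HuCC-A1 the values were 0.106, 0.050, 3.33, 0 and 0.0920 CPM; in EGI-1 they were 1.10, 0.877, 6.66, 0.699 and 2.02 CPM. HuCC-T1 tumors had 2.37, 1.56, 1.27, 2.75 and 0.156 CPM. Replicate 3 was far above the other tumors in HuCC-A1 and again in EGI-1, and replicate 5 was far below the others in HuCC-T1. The log2 fold changes were -1.61 ± 1.04 for HuCC-A1 against EGI-1 (edgeR adjusted p = 0.198), -0.49 ± 1.01 for HuCC-T1 against EGI-1 (edgeR adjusted p = 0.702) and -1.12 ± 1.04 for HuCC-A1 against HuCC-T1 (edgeR adjusted p = 0.373). When HuCC-A1 replicate 3 was left out, CDH17 was lower in HuCC-A1 than in EGI-1 (log2 fold change -5.13, edgeR adjusted p = 0.000412) and than in HuCC-T1 (-4.66, edgeR adjusted p = 0.000902). With all tumors in, limma-voom also called it lower in HuCC-A1 than in EGI-1 (-3.43, adjusted p = 0.0254). Leaving out EGI-1 replicate 3 turned the HuCC-T1 against EGI-1 value to 0.46.

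LGALS4 and REG4 carried the same 2 outlying tumors. LGALS4, a galectin that binds sugars of the apical membrane, measured 1.88, 1.75, 6.05, 2.32 and 2.45 CPM in HuCC-A1 (replicates 1 to 5), 0.519, 1.48, 4.63, 0.349 and 0.896 CPM in EGI-1, and 2.05, 1.11, 1.01, 1.24 and 0.716 CPM in HuCC-T1. REG4 measured 2.41, 0.25, 20.2, 0.580 and 1.01 CPM in HuCC-A1 (replicates 1 to 5), 0.153, 0.393, 3.99, 0 and 0.410 CPM in EGI-1, and 1.5, 0.692, 0.449, 0.565 and 0.623 CPM in HuCC-T1. The ranges of all models overlapped for both genes, and neither passed in any comparison. For LGALS4 the log2 fold changes were 0.87 ± 0.575 (HuCC-A1 against EGI-1, edgeR adjusted p = 0.210), -0.37 ± 0.583 (HuCC-T1 against EGI-1, edgeR adjusted p = 0.614) and 1.24 ± 0.586 (HuCC-A1 against HuCC-T1, edgeR adjusted p = 0.0794). Those of REG4 were 2.29 ± 1.11 (edgeR adjusted p = 0.0882), -0.38 ± 1.11 (edgeR adjusted p = 0.792) and 2.67 ± 1.14 (edgeR adjusted p = 0.0539). Leaving out EGI-1 replicate 3 brought both genes past the threshold in HuCC-A1 against EGI-1, with log2 values of 1.82 for LGALS4 (edgeR adjusted p = 0.00566) and 4.32 for REG4 (edgeR adjusted p = 0.00530), and leaving out HuCC-A1 replicate 3 lowered LGALS4 to 0.38 and REG4 to 0.07. LGALS4 also passed by limma-voom in HuCC-A1 against EGI-1 (1.31, adjusted p = 0.0443). In HuCC-A1 against HuCC-T1, LGALS4 passed without EGI-1 replicate 3 (1.24, edgeR adjusted p = 0.0283) and in the fit of those 10 tumors alone (1.19, edgeR adjusted p = 0.0273), and REG4 passed in 7 alternatives, 5 of them with 1 tumor left out (HuCC-A1 replicate 2, 4 or 5, or EGI-1 replicate 3 or 4), but was at 0.43 without HuCC-A1 replicate 3.

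The trefoil genes lie side by side on the minus strand of chromosome 21 (GRCh38, GENCODE 29 annotation): TFF3 at chr21:42311667-42315651, TFF2 at chr21:42346357-42351128 and TFF1 at chr21:42362282-42366594. All 3 had their highest mean in EGI-1, but the size of the step differed widely. TFF2 in EGI-1 measured 51.1, 93.9, 35.6, 103 and 93.4 CPM, compared with 4.85, 0.750, 5.14, 2.19 and 2.85 CPM in HuCC-A1 and 11.4, 26.3, 11.1, 19.2 and 2.93 CPM in HuCC-T1. EGI-1 stood clear of both other models, whose ranges met only through HuCC-T1 replicate 5. TFF2 was 23.5-fold lower in HuCC-A1 than in EGI-1 (log2 fold change -4.56 ± 0.552, edgeR adjusted p = 2.23e-06), 5.31-fold lower in HuCC-T1 than in EGI-1 (-2.41 ± 0.496, edgeR adjusted p = 0.000592) and 4.44-fold lower in HuCC-A1 than in HuCC-T1 (-2.15 ± 0.506, edgeR adjusted p = 0.00159). The 3 calls held under every alternative.

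TFF1 and TFF3 differed less between models, and in EGI-1 both were far higher in replicate 5 than in the other tumors. TFF1 measured 11, 1.90, 18.6, 11.4 and 17.5 CPM in HuCC-A1 (replicates 1 to 5), 12.9, 16.2, 11.8, 11 and 48.5 CPM in EGI-1, and 5.44, 8.85, 5.87, 15.6 and 1.74 CPM in HuCC-T1. TFF3 measured 8.43, 2.05, 22.0, 7.05 and 12.2 CPM in HuCC-A1 (replicates 1 to 5), 33.3, 38.5, 18.0, 16.6 and 109 CPM in EGI-1, and 13.7, 20.4, 13.7, 26.1 and 7.57 CPM in HuCC-T1. Ranges overlapped in every comparison of these genes. TFF3 was 4.14-fold lower in HuCC-A1 than in EGI-1 (log2 fold change -2.05 ± 0.557, edgeR adjusted p = 0.00466), whereas the TFF1 value of -0.73 ± 0.562 did not pass (edgeR adjusted p = 0.285). In HuCC-T1 against EGI-1 both passed narrowly, TFF1 at -1.42 ± 0.572 (edgeR adjusted p = 0.0454) and TFF3 at -1.41 ± 0.545 (edgeR adjusted p = 0.0387), and neither call survived without EGI-1 replicate 5, at -0.79 (edgeR adjusted p = 0.227) and -0.71 (edgeR adjusted p = 0.232). Over 23 alternatives the TFF1 call was lost in 11, with adjusted p up to 0.227, and the TFF3 call in 8; both were also lost without EGI-1 replicate 2 or HuCC-T1 replicate 1, 2, 3 or 5, and TFF1 without HuCC-A1 replicate 1, 3 or 4. HuCC-A1 against HuCC-T1 gave 0.69 ± 0.566 for TFF1 (edgeR adjusted p = 0.311) and -0.64 ± 0.542 for TFF3 (edgeR adjusted p = 0.327).

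The mix of trefoil transcripts differed between models. On the scale of CPM per kb of exon, TFF1 made up 62.9% ± 6.66 (SD, n = 5) of the summed level of the 3 genes in HuCC-A1, 21.4% ± 7.08 in EGI-1 and 28.9% ± 5.80 in HuCC-T1. TFF2 made up 11.9% ± 4.23, 57.8% ± 14.8 and 36.6% ± 8.23, and TFF3 25.2% ± 4.95, 20.8% ± 8.45 and 34.4% ± 8.65. HuCC-A1 was thus the model in which TFF1 transcripts formed the largest part in every tumor, from 56.5% to 70.4%. In EGI-1 TFF2 transcripts did so in every tumor, from 38.3% to 78.4%. TFF2 also had the largest mean share in HuCC-T1, but there the leading gene varied by tumor. It was TFF2 in replicates 1 (39.0%), 2 (48.5%) and 3 (37.5%), TFF1 in replicate 4 (38.4%) and TFF3 in replicate 5 (49.2%). The TFF1 and TFF2 shares of HuCC-A1 did not overlap those of EGI-1 or HuCC-T1 (exact two-sided permutation p = 0.00794 for each of these 4 comparisons, the smallest that 5 against 5 tumors allow, 0.0179 after Benjamini-Hochberg adjustment over 9 tests). HuCC-T1 had a lower TFF2 share and a higher TFF3 share than EGI-1 (exact permutation p = 0.0238 each, adjusted 0.0357). The other 3 did not pass, with exact permutation p between 0.0556 and 0.365. The 3 shares of a tumor sum to 100%, so they are not independent of one another.

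**Figure D2:**
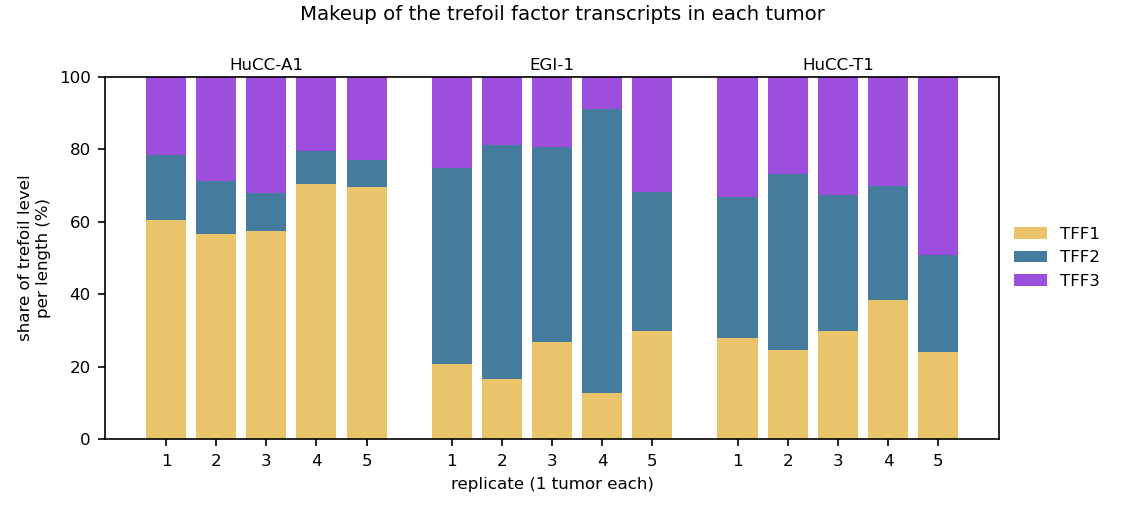
Share of TFF1, TFF2 and TFF3 in their summed level per length (vertical axis, %) in each of the 15 tumors, grouped by model along the horizontal axis. TFF1 fills 56.5% to 70.4% of the HuCC-A1 bars, while TFF2 fills 38.3% to 78.4% of the EGI-1 bars.

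Of the neighbours within 250 kb of TFF2, TMPRSS3, a transmembrane serine protease next to TFF1, had means of 9.70 ± 3.97 CPM in HuCC-A1, 37.1 ± 6.13 in EGI-1 and 15.7 ± 6.53 in HuCC-T1, and was lower than EGI-1 in both other models (log2 fold changes -1.93 and -1.24, edgeR adjusted p = 9.11e-05 and 0.00388). It was also the gene closest in pattern to TFF3 among 11157 protein-coding candidates, with a root mean square difference of 0.650 in centred log2 values over the 15 tumors. SLC37A1 was lower in HuCC-A1 (82.2 ± 9.43 CPM) and HuCC-T1 (46.2 ± 9.47) than in EGI-1 (177 ± 12.6), with edgeR adjusted p = 3.44e-06 and 8.80e-09. Other neighbours ran differently: RSPH1 was highest in HuCC-A1, at 49.7 ± 33.3 CPM against 20.7 ± 5.76 and 17.1 ± 6.89, UMODL1 had 1.29 ± 0.734 CPM in HuCC-A1 and under 0.1 CPM on average in the others, and the lipid transporter gene ABCG1, with means of 19.3, 25.7 and 18.1 CPM, passed in no comparison. UMODL1-AS1, which overlaps UMODL1, followed it at 4.00 ± 2.30, 0.0580 ± 0.0821 and 0.206 ± 0.193 CPM, and AP001625.2, antisense to SLC37A1, stayed between 1.47 and 2.67 CPM on average and passed in none.

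AGR2 was the one member that was lowest in EGI-1, and it had the highest mean per length in each model, with TFF2 close to it in EGI-1. Its values were 705, 454, 809, 551 and 539 CPM in HuCC-A1 (replicates 1 to 5), 274, 279, 303, 195 and 319 CPM in EGI-1, and 1452, 1100, 968, 964 and 376 CPM in HuCC-T1. All EGI-1 tumors lay below all tumors of both other models, and HuCC-T1 replicate 5 fell under the whole HuCC-A1 range. AGR2 was 2.23-fold higher in HuCC-A1 than EGI-1 (log2 fold change 1.16 ± 0.266, edgeR adjusted p = 0.00132) and 3.55-fold higher in HuCC-T1 than in EGI-1 (1.83 ± 0.271, edgeR adjusted p = 2.58e-05). The call of HuCC-A1 1.59-fold below HuCC-T1 (-0.67 ± 0.264, edgeR adjusted p = 0.0392) was lost in 10 of 23 alternatives, 7 of them tumors left out in turn, which gave log2 values down to -0.54. Per kb of exon AGR2 reached 215 ± 50.2, 96.3 ± 16.7 and 342 ± 136 CPM in HuCC-A1, EGI-1 and HuCC-T1 and ranked 107th, 386th and 65th among all genes. Upstream of the RefSeq start of AGR2, the RefSeq table gives the following stretch, shown because AGR2 was the member with the highest level. It is at chr7:16805081-16805249 on the minus strand, before every exon that GENCODE 29 starts within the window. In GENCODE 29 the gene spans chr7:16791811-16833433, so the stretch lies inside it and not upstream of its longest form. It holds none of the 4 motifs, so no letter is in capitals.
AGR2: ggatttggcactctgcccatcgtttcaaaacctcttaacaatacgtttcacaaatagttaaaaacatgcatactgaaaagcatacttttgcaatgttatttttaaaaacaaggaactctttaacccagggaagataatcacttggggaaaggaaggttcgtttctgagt

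Levels can be ordered between genes only per kb of exon, the scale of the values that follow. In EGI-1 the order began with AGR2 (96.3 ± 16.7 CPM per kb) and TFF2 (90.8 ± 36.1), which did not differ beyond their spread, followed by TFF3 (36.9 ± 32.7) and TFF1 (36.5 ± 29), also alike within their spread. VIL1 (2.40 ± 0.914), GPA33 (1.51 ± 1.32) and CDX2 (1.12 ± 0.126) came next, and CDH17, LGALS4 and REG4 were at 0.582, 0.596 and 0.283 CPM per kb. In HuCC-A1, AGR2 (215) was followed by TFF1 (22.0 ± 12.1), TFF3 (8.87 ± 6.40) and TFF2 (3.8 ± 2.22), and the 6 remaining genes lay between 0.0523 for VIL1 and 1.4 for REG4. HuCC-T1 had AGR2 (342), then TFF2 (17.1 ± 10.7), TFF3 (13.9 ± 6.09) and TFF1 (13.6 ± 9.44) within their spread, with CDX2 last at 0.0464. AGR2 and the 3 trefoil genes were thus the abundant members in every model, and REG4, also secreted, was among the scarce ones.

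**Figure D3:**
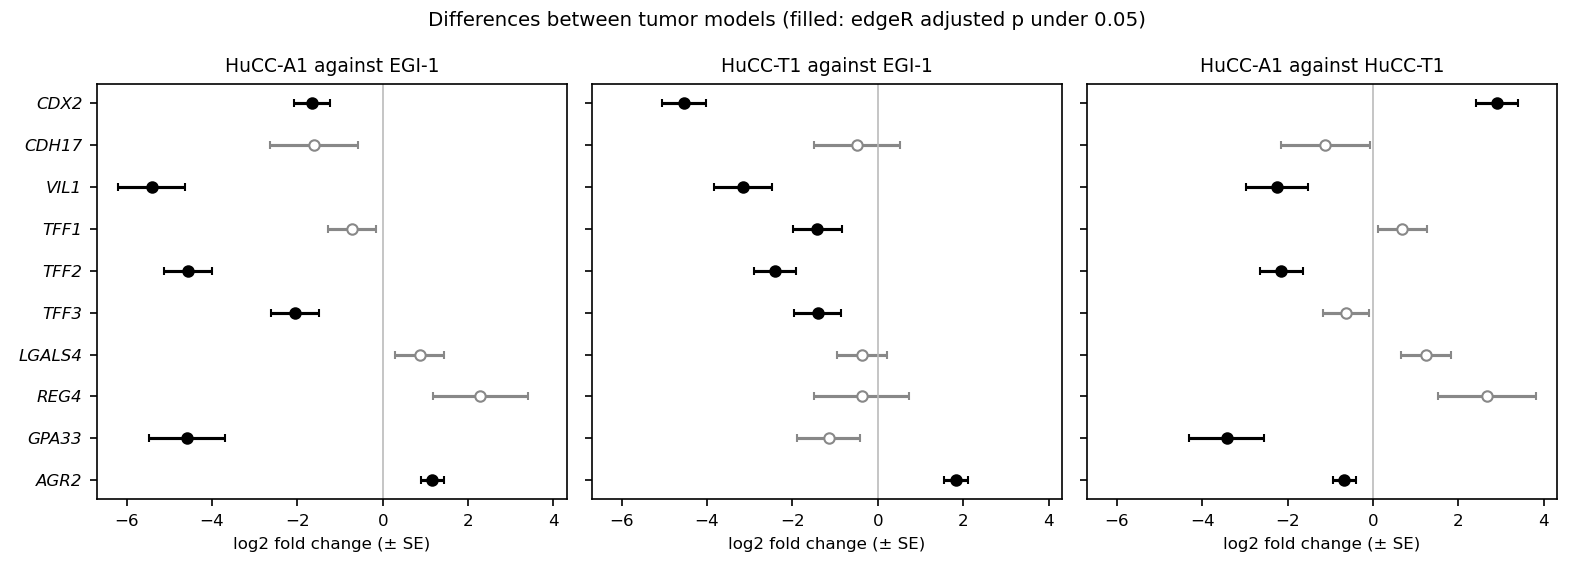
Log2 fold change (horizontal axis) of each gene in the 3 comparisons, first model minus second, with standard errors as bars; filled points have an edgeR adjusted p under 0.05. CDX2, VIL1 and TFF2 lie left of 0 in both comparisons with EGI-1 and AGR2 lies right of it, at 1.16 and 1.83.

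Within a model, single tumors were high or low for most members at once. HuCC-A1 replicate 3 was the highest of its model for 10 of 10 members, and for 18.5% of all tested genes. It was highest for 5 of 17 gut transcription factors with counts, 9 of 33 enterocyte genes, 2 of 14 goblet cell genes and 6 of 19 gastric genes, that is, for a smaller part of each wider list. It had the largest total of its model, 33585265 counts, as EGI-1 replicate 3 did in its own, 44067878; the part of depth in these levels was not tested. HuCC-A1 replicate 2, the shallowest library with 20001412 counts, was lowest for 7 of 10 members against 24.7% of all tested genes. It was also lowest for 6 of 8 squamous markers, which summed to 2002 CPM in it and to 3262 to 5524 CPM in the other HuCC-A1 tumors, and its biliary marker sum, 8552 CPM, was the highest of the model; their part in its member levels was not tested.

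In EGI-1, replicate 5 was highest for 4 of 10 members (VIL1, TFF1, TFF3 and AGR2), against 24.9% of all tested genes. Replicate 3 was highest for 3 (CDH17, LGALS4 and REG4), against 14.3%, and replicate 4 was lowest for 7 of 10, against 15.1%. EGI-1 replicate 5 was also highest for 9 of 12 goblet cell genes with counts. HuCC-T1 replicate 4 was highest for 4 members, against 13.2% of all tested genes, and HuCC-T1 replicate 5 was lowest for 7 of 10, against 18.4%. That last tumor was also highest for 7 of 8 squamous markers, against 23.2% of all tested genes. The summed level of these markers was 9695 CPM in it against a range of 1641 to 1927 CPM over the rest of that model. The part of squamous cells in the low member levels of this tumor was not tested. Without it, HuCC-T1 was lower than EGI-1 for 3 members in place of 5, since TFF1 (log2 fold change -1.17, edgeR adjusted p = 0.0871) and TFF3 (-1.23, edgeR adjusted p = 0.0830) no longer passed.

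**Figure D4:**
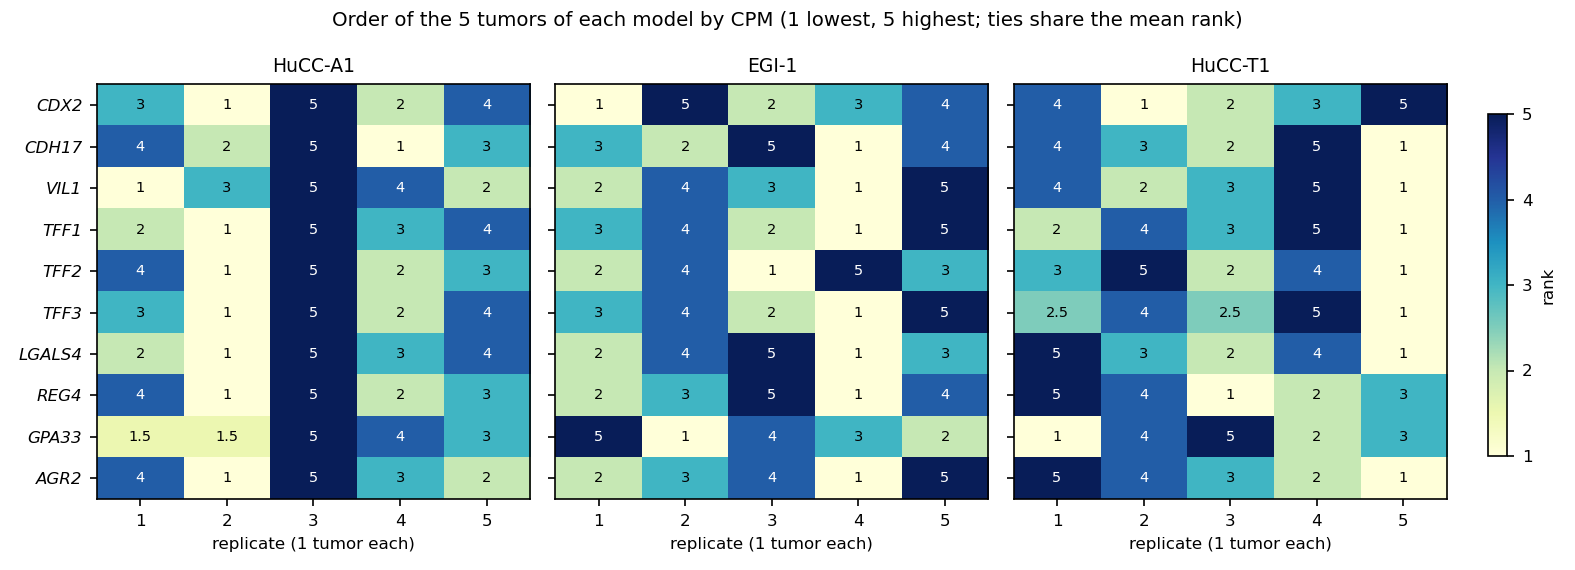
Rank of the 5 tumors of each model (columns, by replicate) by CPM of each gene (rows), from 1 for the lowest to 5 for the highest, with ties after rounding at their mean rank. The column of HuCC-A1 replicate 3 holds rank 5 in 10 of 10 rows, and HuCC-T1 replicate 5 holds rank 1 in 7 of 10.

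The other genes of these lineages were read from lists fixed for this purpose. Beside each list count that follows, 29.4% of all tested genes were higher and 26.0% lower in HuCC-A1 against EGI-1. These shares were 27.3% and 25.0% in HuCC-T1 against EGI-1, and 29.1% and 27.2% in HuCC-A1 against HuCC-T1. Median log2 fold changes over all tested genes were 0.06, 0.06 and 0.05 in the same order. Of 18 gut transcription factors, 15 could be tested: 7 were higher and 6 lower in HuCC-A1 than in EGI-1, 7 higher and 3 lower in HuCC-T1 than in EGI-1, and 7 higher and 5 lower in HuCC-A1 than in HuCC-T1, with median log2 fold changes of 0.71, 0.02 and 0.39. CDX1, the close relative of CDX2, had no counts in any of the 15 tumors, nor had CDX4, a limit of 0.00624 CPM over the pooled libraries (3 counts). SOX2, a factor of gastric and squamous foregut epithelium, had no counts in EGI-1, 78.4 ± 22.5 CPM in HuCC-A1 and 0.392 ± 0.422 in HuCC-T1. ASCL2, a factor of intestinal stem cells, was largely found in EGI-1, at 17.3 ± 6.73 CPM against 0.408 ± 0.366 in HuCC-A1 and 0.0249 ± 0.0557 in HuCC-T1 (edgeR adjusted p = 1.98e-06 and 1.53e-07).

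FOXA1, a forkhead factor that opens chromatin in gut endoderm, had 94.2 ± 30.7 CPM in HuCC-A1 and 1.63 ± 0.572 in HuCC-T1, 57.6-fold apart (log2 fold change 5.85, edgeR adjusted p = 1.23e-10). FOXA2 was higher than in EGI-1 (2.16 ± 0.686 CPM) in both HuCC-A1 (14.9 ± 10.9, edgeR adjusted p = 7.99e-06) and HuCC-T1 (24.2 ± 4.51, edgeR adjusted p = 1.11e-06), and its value of -0.71 between HuCC-A1 and HuCC-T1 did not pass (edgeR adjusted p = 0.0936). FOXA3 was 39.0-fold lower in HuCC-A1 (0.274 ± 0.268 CPM) than in HuCC-T1 (11.4 ± 2.88 CPM, edgeR adjusted p = 1.14e-06), the opposite direction to FOXA1. HNF4A, a nuclear receptor of liver and gut, ran the other way from FOXA1, at 0.521 ± 0.230 CPM in HuCC-A1 and 22.5 ± 13.3 in HuCC-T1 (edgeR adjusted p = 6.02e-08).

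Among 33 enterocyte and brush border genes, 22 could be tested. HuCC-A1 had 5 higher and 11 lower than EGI-1, HuCC-T1 had 4 higher and 9 lower than EGI-1, and HuCC-A1 had 9 higher and 11 lower than HuCC-T1, with medians of -0.97, -1.38 and -1.11. The summed level of the list was 4087 to 5567 CPM in EGI-1, above all tumors of HuCC-A1 (949 to 2189) and HuCC-T1 (1262 to 1790). Its largest parts in EGI-1 were EZR (2191 ± 176 CPM), CEACAM6 (870 ± 387), KRT20 and CEACAM5 (342 ± 155). By contrast, the enterocyte genes FABP1, FABP2, ALPI, SI, LCT and SLC26A3 had means of at most 0.102 CPM in EGI-1. The highest mean of any of them was that of SI in HuCC-A1, 0.731 ± 0.538 CPM. KRT20, the keratin of intestinal epithelium, had 657 ± 57.1 CPM in EGI-1, 6.26 ± 2.83 in HuCC-A1 and 1.90 ± 1.75 in HuCC-T1, 104-fold and 342-fold lower (edgeR adjusted p = 5.32e-09 and 1.56e-09). DPP4, a brush border peptidase, had 78.0 ± 6.42 CPM in EGI-1 and 6.54 ± 3.10 in HuCC-T1, 11.9-fold lower (edgeR adjusted p = 6.96e-06).

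Not every brush border gene followed VIL1. ANPEP, another peptidase of that membrane, had 0.0902 ± 0.0517 CPM in EGI-1, 30.1 ± 16.0 in HuCC-A1 and 183 ± 63.7 in HuCC-T1, that is 311-fold and 1895-fold higher than in EGI-1 (edgeR adjusted p = 1.89e-10 and 1.98e-11). USH1C, which ties microvilli together at their tips, was nearly missing from HuCC-A1, at 0.128 ± 0.228 CPM, and was 143-fold and 184-fold below EGI-1 and HuCC-T1 (edgeR adjusted p = 3.17e-07 and 2.05e-07). LGALS2, a relative of LGALS4, was 24.5-fold lower in HuCC-A1 than in HuCC-T1 (edgeR adjusted p = 1.02e-06), and GUCY2C, the intestinal guanylate cyclase receptor, was 14.4-fold higher (6.29 ± 1.56 against 0.432 ± 0.398 CPM, edgeR adjusted p = 8.07e-06).

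For 14 goblet cell genes, 11 could be tested, with 5 higher and 3 lower in HuCC-A1 than in EGI-1, 5 higher and 5 lower in HuCC-T1 than in EGI-1, and 5 higher and 2 lower in HuCC-A1 than in HuCC-T1 (medians 1.01, -0.96 and 0.74). FCGBP, a mucus protein, had 126 ± 52.7 CPM in HuCC-A1, 5.24 ± 3.11 in EGI-1 and 130 ± 143 in HuCC-T1, 24.0-fold and 24.6-fold above EGI-1 (edgeR adjusted p = 1.22e-05 and 1.40e-05). The mucin gene MUC2 ran the other way, at 22.1 ± 9.42 CPM in EGI-1 against 1.26 ± 0.809 in HuCC-A1 and 2.70 ± 1.87 in HuCC-T1 (edgeR adjusted p = 3.91e-06 and 6.45e-05). ERN2 was also highest in EGI-1, at 194 ± 27.7 CPM against 88.0 ± 38.0 and 97.2 ± 39.9 (edgeR adjusted p = 0.00458 and 0.0116). KLK1, tissue kallikrein, was lowest in HuCC-A1, 31.4-fold under EGI-1 and 143-fold under HuCC-T1 (edgeR adjusted p = 3.68e-07 and 8.70e-09). CREB3L1, a transcription factor of the secretory pathway, was 12.2-fold higher in HuCC-T1 than in EGI-1 (edgeR adjusted p = 0.000363). The glycosyltransferases B3GNT6 (6.30 ± 5.36, 0.479 ± 0.808 and 0.0573 ± 0.0972 CPM in HuCC-A1, EGI-1 and HuCC-T1) and ST6GALNAC1 (105 ± 22.9, 51.9 ± 15.2 and 17.8 ± 5.83 CPM) had the same order, and both were higher in HuCC-A1 than in HuCC-T1 (edgeR adjusted p = 0.000114 and 1.97e-07). B3GNT6 was also higher in HuCC-A1 than EGI-1 and lower in HuCC-T1 than in EGI-1, with overlapping ranges (edgeR adjusted p = 0.00269 and 0.0388).

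Of 19 gastric genes, 12 could be tested: 5 were higher and 2 lower in HuCC-A1 than in EGI-1, 6 higher and 2 lower in HuCC-T1 than in EGI-1, and 5 higher and 4 lower in HuCC-A1 than in HuCC-T1, with medians of 0.42, 0.97 and -0.04. HuCC-A1 carried AQP5, a water channel of gastric glands (114 ± 81.9 CPM against 0.935 ± 0.802 in EGI-1 and 0.649 ± 0.263 in HuCC-T1, edgeR adjusted p = 9.81e-08 and 7.22e-08), and ANXA10, an annexin of gastric epithelium (13.9 ± 9.27 CPM against 0.188 ± 0.182 and 1.35 ± 1.27, edgeR adjusted p = 5.17e-06 and 0.000433). HuCC-T1 carried MUC6, the mucin made by the gland cells that also make TFF2 (246 ± 126 CPM against 1.68 ± 1.36 in EGI-1, 145-fold, edgeR adjusted p = 5.23e-08), and cathepsin E (CTSE, 69.8 ± 39.6 CPM against 8.86 ± 2.42 in EGI-1 and 0.304 ± 0.178 in HuCC-A1, edgeR adjusted p = 7.66e-06 and 2.11e-09). Between HuCC-A1 and EGI-1, CTSE was 29.3-fold lower in HuCC-A1 (edgeR adjusted p = 2.48e-07). PSCA was 9.32-fold lower in HuCC-T1 than in EGI-1 (118 ± 86.7 against 1098 ± 266 CPM, edgeR adjusted p = 1.05e-05). MUC6 and TFF2 did not share their order: MUC6 had 1.68 CPM in EGI-1, where TFF2 was highest. The mucin gene MUC5AC was abundant in all models, at 450 ± 240, 400 ± 97.6 and 473 ± 190 CPM in HuCC-A1, EGI-1 and HuCC-T1. It passed in no comparison (edgeR adjusted p between 0.647 and 0.893). GKN1, GKN2, PGC, LIPF and ATP4A, also gastric genes, had means of at most 0.115 CPM in any model.

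**Figure D5:**
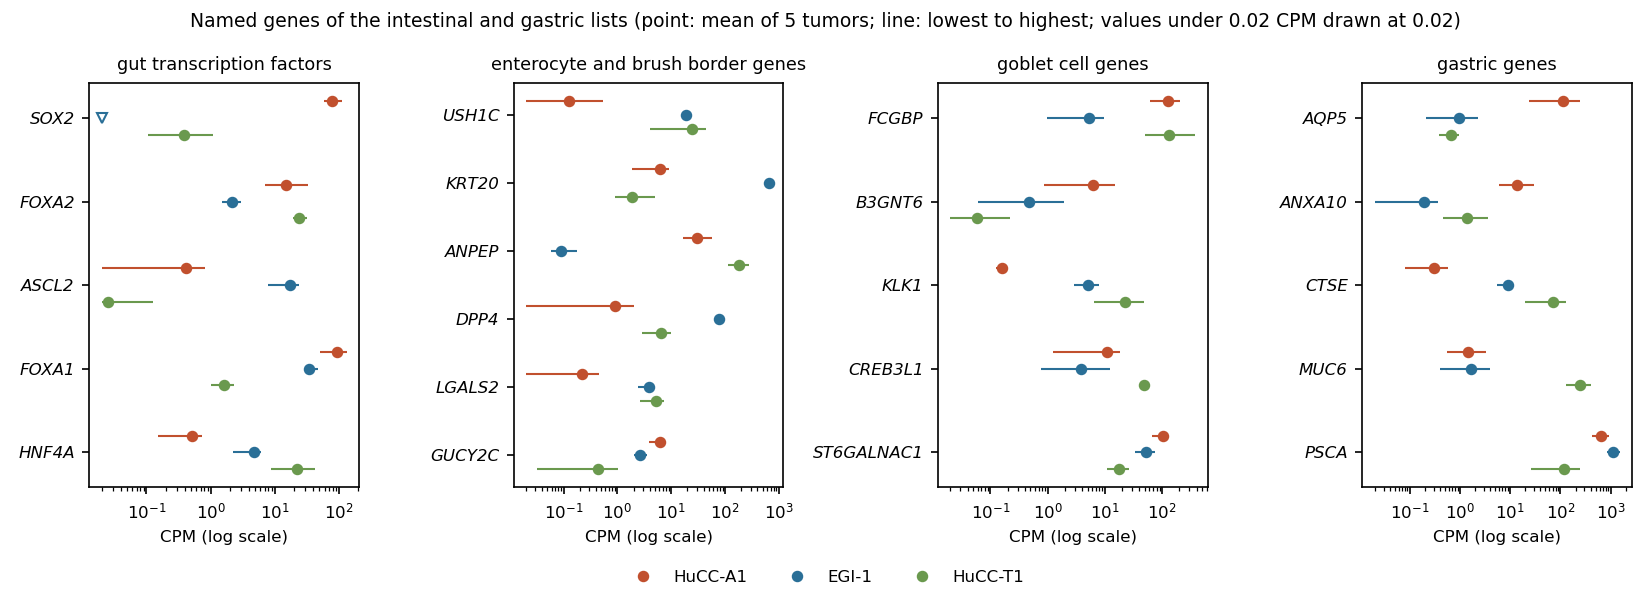
Named genes of 4 lists with mean CPM of 5 tumors (points, log scale on the horizontal axis) and the range from the lowest to the highest tumor (lines) in HuCC-A1, EGI-1 and HuCC-T1; values under 0.02 CPM are drawn at 0.02, with an open triangle for no counts in a model. KRT20 and DPP4 are highest in EGI-1, at 657 and 78.0 CPM, SOX2 and AQP5 in HuCC-A1, at 78.4 and 114 CPM, and MUC6 and CTSE in HuCC-T1, at 246 and 69.8 CPM.

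Relatives of the members by family were also counted, 22 genes of which 15 could be tested. In HuCC-A1 against EGI-1, 8 were higher and 5 lower; in HuCC-T1 against EGI-1, 3 were higher and 7 lower; in HuCC-A1 against HuCC-T1, 6 were higher and 4 lower (medians 0.78, -0.49 and -0.01). AGR3, the neighbour and closest relative of AGR2, was higher than in EGI-1 (6.15 ± 1.03 CPM) in both HuCC-A1 (28.1 ± 15.1 CPM, edgeR adjusted p = 2.18e-05) and HuCC-T1 (13.9 ± 4.40 CPM, edgeR adjusted p = 0.00497), as AGR2 was. LGALS9, another galectin, was 7.83-fold and 4.99-fold lower in these models than in EGI-1 (edgeR adjusted p = 4.49e-08 and 9.03e-07). REG1B, REG3A and REG3G, relatives of REG4, had no counts in any tumor. SCIN, of the villin family, was 9.91-fold higher in HuCC-A1 than in HuCC-T1 (47.1 ± 8.96 against 4.76 ± 2.25 CPM, edgeR adjusted p = 4.60e-08), and so was opposite in direction to VIL1 there. Among adhesion genes of the immunoglobulin superfamily related to GPA33, CLMP was 58.4-fold higher in HuCC-A1 than EGI-1 and 127-fold higher than in HuCC-T1 (edgeR adjusted p = 4.90e-09 and 1.71e-09), CXADR was 2.77-fold lower in HuCC-A1 than in HuCC-T1 (edgeR adjusted p = 7.50e-05), and ESAM was 4.76-fold lower in HuCC-T1 than in EGI-1 (edgeR adjusted p = 6.87e-05).

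Markers of other cell types also differed between models. Of 15 biliary markers, 14 were tested, with 4 higher and 9 lower in HuCC-A1 than in EGI-1 (median -1.63), 4 higher and 6 lower in HuCC-T1 than in EGI-1 (0.20), and 3 higher and 10 lower in HuCC-A1 than in HuCC-T1 (-1.12). Of 14 stromal and immune markers, 10 were tested, with 7 higher and 2 lower in HuCC-A1 than in EGI-1 (2.52), 5 higher and 1 lower in HuCC-T1 than in EGI-1 (1.36), and 4 in each direction between HuCC-A1 and HuCC-T1 (0.40). Their summed level ranged from 454 to 983 CPM in HuCC-A1, from 98.9 to 144 CPM in EGI-1 and from 118 to 535 CPM in HuCC-T1, led in HuCC-A1 by the collagen gene COL3A1 (638 ± 245 CPM) and in EGI-1 and HuCC-T1 by COL1A1 (84.5 ± 18.6 and 375 ± 165 CPM); the haemoglobin gene HBA1 had no counts in EGI-1 or HuCC-T1. The sum of 12 hepatocyte markers ranged from 356 to 631, from 127 to 196 and from 260 to 470 CPM, for the most part SERPINA1 (means of 515, 159 and 346 CPM), and APOB, FGB and HP had no counts in EGI-1. Of the 5 hepatocyte markers tested, 2, 3 and 1 were higher and 0, 0 and 2 lower in the 3 comparisons, in the same order (medians 1.5, 1.68 and -0.18). Squamous markers, 8 genes, summed to between 2002 and 5524 CPM in HuCC-A1, 1240 and 5066 in EGI-1, and 1641 and 9695 in HuCC-T1, with 4 higher and 2 lower in either model than in EGI-1 and 3 higher in HuCC-A1 than in HuCC-T1 (medians 0.89, 0.36 and 0.37). The hosts were mice, so host stroma, blood and liver carry mouse genes, whereas the counts are of human genes. How mouse reads were treated is not stated, so these levels are not a measure of host cells. The part of any cell type in the differences between models was not tested.

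The genes closest in pattern to the abundant members over the 15 tumors were found by the root mean square difference of centred log2 values among 11157 protein-coding genes with a mean of at least 10 CPM in a model. AGR2 was nearest to ZNF160 (0.337) and MATN2 (0.371). VIL1 was nearest to ZNF704 (0.633) and ZSCAN4 (0.665), and TFF2 to IL17RD (0.671) and ZNF585B (0.677). TFF1 was nearest to ERN2 (0.643), the stress sensor kinase of mucous cells, and BCAS1 (0.669), and TFF3 to TMPRSS3 (0.650) and SEMA4G (0.686). ERN2 had 88.0 ± 38.0 CPM in HuCC-A1, 194 ± 27.7 in EGI-1 and 97.2 ± 39.9 in HuCC-T1. These distances are descriptions over 15 libraries that share 3 cell lines.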

How the data were processed

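Total RNA of 15 CDX tumors was sequenced from directional libraries. Per the labels, the authors' processing notes name CASAVA, HISAT2 2.0.5, featureCounts 1.5.0-p3 and the GRCh38 build; no source used here states the annotation, the strand setting or how reads of the mouse host were treated. The authors deposited whole-number counts per gene and tumor, not normalized. All 58735 identifiers were found in GENCODE release 29, which gave symbols and lengths.

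From the deposited counts, genes kept by filterByExpr (21019) were fitted with edgeR 4.0.16 (quasi-likelihood F-test, TMM, all 15 tumors in 1 fit, 12 residual degrees of freedom, R 4.3.3), with p-values adjusted by Benjamini-Hochberg over all tested genes and called under 0.05. Each standard error was derived from the test, as the absolute log2 difference of the unshrunken coefficients divided by the square root of the F statistic. The log2 fold changes beside them are those that edgeR reports, which may differ slightly from the unshrunken ones. A common biological coefficient of variation of 0.338 was estimated. Members and lists were chosen with earlier results of these data known. Besides the members, named genes were, for each list and comparison, the 2 called genes with the largest change in the direction with more calls and the 1 in the other, if their average log2 CPM reached 1, the 2 nearest genes in pattern of each member of at least 10 CPM (log2 of CPM + 0.5, centred), and neighbours within 250 kb of TFF2 with at least 1 CPM. CDX1, CDX4, the REG relatives without counts, FOXA3, KRT19, EPCAM and USP37 were named after their values were seen. So were EZR, CEACAM5, CEACAM6, FABP1, FABP2, ALPI, SI, LCT, SLC26A3, MUC2, MUC5AC, GKN1, GKN2, PGC, LIPF and ATP4A. Sequence came from the RefSeq promoter table (GRCh38.p14). Replicates are tumors that the labels number within a model. The closest pair differed by a chi-square of 33.6 per degree of freedom, so none was the same library counted again. That value cannot tell whether tumors came from the same animal. The library names of HuCC-A1 replicates 1 and 2 share a stem, and whether these tumors shared an animal is not stated. Alternatives were RLE scaling, other filters, 10 tumors per fit, a replicate block, DESeq2 1.42.0, limma-voom 3.58.1, each tumor left out in turn and, chosen after seeing the data, both replicate 3 tumors of HuCC-A1 and EGI-1 left out. The fit was tested on simulated data. Limits from counts cover counting error only.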

Additional observations from a re-analysis of the deposited data

Results flagged for a closer look

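In 10 of 30 groups (10 genes in 3 models of 5 tumors), the highest tumor stood apart, its gap to the next exceeding 0.71 of the group's range by Dixon's criterion; chance flags about 1 in 20 groups of normally distributed values, counting both ends, and the rate for skewed CPM was not measured. HuCC-A1 replicate 3 was that tumor for CDH17 (3.33 CPM, next 0.106), LGALS4 (6.05, next 2.45), REG4 (20.2, next 2.41) and GPA33 (0.773, next 0.0644). EGI-1 replicate 3 stood apart for CDH17 (6.66 CPM, next 2.02), LGALS4 (4.63, next 1.48) and REG4 (3.99, next 0.410), the same 3 genes. EGI-1 replicate 5 stood apart for TFF1 (48.5 CPM, next 16.2) and TFF3 (109, next 38.5), though TFF2 in it, 93.4 CPM, lay between other tumors. In HuCC-T1 the only such value was REG4 in replicate 1 (1.5 CPM, next 0.692). No lowest tumor met the criterion.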

How the results depend on the processing

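Of 674 log2 values of the members under alternatives, 611 kept direction and side of the threshold, 29 lost the call, 23 gained it and 11 changed sign. All sign changes were in HuCC-T1 against EGI-1, for genes that passed in no setting there: CDH17 (0.24 with the replicate block, 0.46 without EGI-1 replicate 3, 0.47 without both replicate 3 tumors of HuCC-A1 and EGI-1), LGALS4 (0.13, 0.59 and 0.60, and 0.10 by limma-voom) and REG4 (1.21, 1.66 and 1.67, and 1.26 by limma-voom). With single tumors left out these values ran down to -0.77, -0.63 and -0.76. In HuCC-A1 against EGI-1, 1 member was higher; this became 2 without a filter, with the block and by limma-voom, 3 without both replicate 3 tumors, and 1 to 3 with single tumors left out (3 without EGI-1 replicate 3). The 5 lower members became 2 when at least 10 counts were required in every library, which leaves fewer genes, and 6 with CDH17 added by the replicate block (-2.77, adjusted p = 0.0278), by limma-voom, without HuCC-A1 replicate 3 and without both replicate 3 tumors; the block also called CDH17 lower in HuCC-A1 against HuCC-T1 (-3.01, adjusted p = 0.0299). The 5 lower members in HuCC-T1 against EGI-1 became 3 under that filter, 3 with the block and 3 to 5 with single tumors left out. In HuCC-A1 against HuCC-T1, 1 higher member became 2 without a filter, 0 under the strict filter, 2 in the fit of 10 tumors alone (LGALS4 and REG4, CDX2 not passing its low-count filter) and 1 to 3 with single tumors left out, and 4 lower members became 2 under the strict filter. All genes called higher in HuCC-A1 against EGI-1 numbered 4081 under that filter in place of 6174. By the longest transcript, AGR2 was at 344, 154 and 547 CPM per kb in HuCC-A1, EGI-1 and HuCC-T1, and LGALS4 at 1.88 and 0.797 in HuCC-A1 and HuCC-T1. The cause of these changes was not tested. Replicate numbers did not pair the tumors (correlations of same-numbered deviations from -0.105 to 0.186 over 15 pairs, 4 tumors nearest to their own number); the replicate block moved 3 member calls in and 3 out of 30. Levels that rest on fewer than 10 counts in some libraries, CDX2 in HuCC-A1 and HuCC-T1, CDH17 in HuCC-A1 and HuCC-T1, REG4 in HuCC-A1 and EGI-1, and VIL1 and GPA33 in HuCC-A1, are limited by depth.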
